A study of Homo sapiens with 39 samples.

Results

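The comparison set C4-2B cells given abiraterone acetate (5 µM) together with olaparib (1 µM) for 5 days against C4-2B cells given DMSO for 5 days. Libraries were taken by their treatment labels, 3 of the combination and 3 of DMSO, out of 21 libraries in a panel of 7 treatments and 39 in the whole series. C4-2B is an established castration-resistant prostate cancer cell line that derives from LNCaP, so the data describe a single line and no other model. Every group used here was kept in RPMI medium with serum, and the labels set them apart by drug alone. Libraries of abiraterone alone (5 µM, 3 libraries) and olaparib alone (1 µM, 3 libraries) from the same panel serve as reference points. RNA was captured as mRNA, sequenced in pairs with a stranded kit, and counted per gene by the authors. The replicates are lettered A, B and C, and the labels do not say whether they were separate cultures, so the p-values measure the spread between these samples, which may be technical.

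Abiraterone blocks CYP17A1, the enzyme that makes androgen precursors, and so lowers the androgens on which prostate luminal cells depend. Olaparib inhibits PARP1 and PARP2, the poly(ADP-ribose) polymerases that mark DNA breaks for repair, and holds them on DNA. Breaks that persist into replication need homologous recombination, and they activate p53, whose target CDKN1A (p21) stops the cell cycle. The question behind the panel is what such drugs do alone and together to the transcripts of androgen response, repair and other pathways.

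The 6 libraries held between 26932205 and 39905703 counts, and the mitochondrial share of counts was 9.68% to 10.1% with DMSO and 13.2% to 13.8% with the combination. Replicates of a group differed by more than the sampling of reads (the ratio of chi-square to degrees of freedom, over genes, lay between 2.81 and 6.03 for each pair), so none was a repeat of another library. The cells matched their label: of 10 markers of luminal prostate cells all 10 were tested, and their summed level was 5280 to 5450 CPM (counts scaled by library size, with TMM factors) with DMSO and 4480 to 4580 CPM with the combination. TP63 and KRT5, which define basal cells, had at most 2 counts in any panel library, and CD3E of T cells had 0. The 4 basal markers that passed the filter on low counts summed to 23.3 to 24.8 CPM with DMSO and 21.5 to 22.7 CPM with the combination. The summed level of the 4 immune markers that passed the filter was 4.81 to 7.54 CPM with DMSO and 5.60 to 8.30 CPM with the combination, most of it from CD68, which did not pass the test (-0.09, adjusted p = 0.635). The other 3 did: ITGAM rose from 0, 0 and 0 counts to 14, 13 and 11 and PTPRC from 0, 0 and 3 to 16, 31 and 27, and LYZ fell from 13, 6 and 17 to 4, 3 and 2. The 3 fibroblast markers that passed it summed to 12 to 16.1 CPM and 23.2 to 24.3 CPM, while COL1A2, DCN, LUM, FAP and PDGFRA stayed at 3 counts or fewer in every panel library. What part other cells have in the result was not tested.

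The combination changed the level of most genes that could be tested, and most of the changes were small. Of 18625 genes tested by edgeR's quasi-likelihood test with Benjamini-Hochberg adjustment, 5785 (31.1%) were higher than with DMSO and 5796 (31.1%) were lower at an adjusted p under 0.05. The median absolute log2 fold change of the 11581 genes called was 0.49, and 50.8% of them changed by less than 0.5. A change of at least 1 on the log2 scale was called for 1903 genes higher (10.2%) and 789 genes lower (4.24%), so large rises outnumbered large falls. At 2 or more, 661 were higher and 238 lower. The median over all genes tested was 0.01. A gene is called higher or lower here only if it passed the adjusted p under 0.05, and the counts within gene lists against DMSO are to be read against the 31.1% called in each direction.

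**Figure D1:**
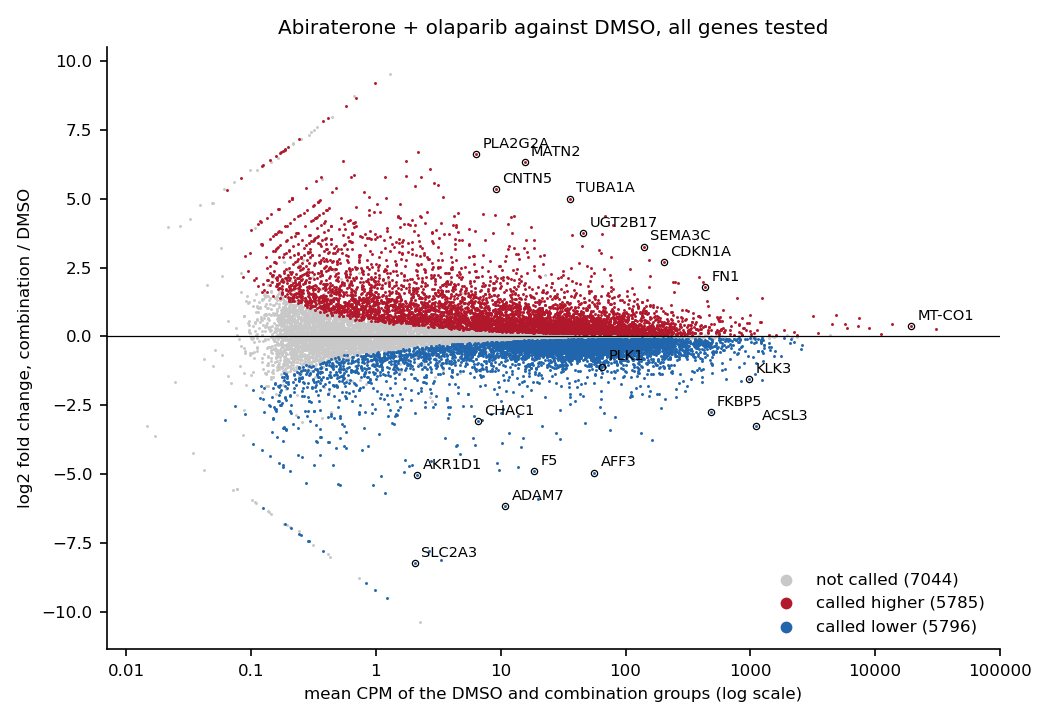
Log2 fold change of the combination over DMSO (vertical axis) against the mean CPM of both groups (horizontal log axis) for all genes tested, coloured by call. Red marks the 5785 genes called higher and blue the 5796 called lower, and at a log2 change of 2 or more 661 were higher and 238 lower. The diagonal lines at both edges are genes with almost no counts in 1 group, whose fitted fold changes have no meaning beyond their direction.

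Against the single agents, the combination stood closer to abiraterone. It differed from abiraterone alone in 2691 genes higher (14.4% of those tested) and 2745 lower (14.7%), and from olaparib alone in 5081 higher (27.3%) and 5454 lower (29.3%). Scaling by total count in place of TMM moved the split against olaparib from 48.2% to 59.9% higher and that against abiraterone from 49.5% to 39.7%. All these comparisons use the same 3 combination libraries, so their values are given side by side and not as independent evidence. The effect of olaparib in the presence of abiraterone differed from its effect alone in 2386 genes (12.8%), by the interaction term of the same fit.

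Among the 12 largest rises TUBA1A had the highest mean with DMSO, 2.20 CPM (69.6 CPM with the combination), and CNTN5 the next, 0.437 CPM. MATN2, which encodes the matrix protein matrilin-2, was at 0.407, 0.349 and 0.380 CPM in the DMSO libraries and at 33.6, 29.9 and 28.7 CPM in the combination libraries. No library of one group came near the other, and the log2 fold change was 6.33 ± 0.12 (SE; adjusted p = 1.01e-30). PLA2G2A, a secreted phospholipase, read 0.136, 0 and 0.228 CPM with DMSO and 13.1, 12.6 and 12.3 CPM with the combination (6.62 ± 0.24). UPK1A, a urothelial surface protein, read 0, 0.116 and 0 CPM against 5.50, 4.13 and 3.33 CPM (6.68 ± 0.44), and UPK2, another uroplakin, rose by 5.06 on the log2 scale. The others among the 12 largest rises were CYP1A2 (a drug-metabolizing cytochrome, 6.06), RCAN2 (a calcineurin regulator, 5.82), SMOC1 (a matrix calcium-binding protein, 5.80), DNASE1L3 (a secreted DNase, 5.58), COL5A1 (a collagen chain, 5.49), CNTN5 (a neural adhesion molecule, 5.35), TUBA1A (an alpha-tubulin, 5.00) and SSTR5-AS1 (4.53). TUBA1A has near-identical tubulin copies and SSTR5-AS1 is antisense to another gene, so the assignment of their reads is uncertain. All 12 had every combination library above every DMSO library. For 5 of them the fold moved by over 1.5 times when 1 DMSO library was left out. UPK1A, with 0, 4 and 0 counts in the DMSO libraries, rose by 10.31 without DMSO library B, a fitted value against DMSO at 0 and no measured fold, and by 6.04 without C. The log2 fold change of UPK2 was 5.97 without B and 4.46 without C, and without C it was 7.58 for PLA2G2A and 6.55 for COL5A1. For RCAN2, with 0, 1 and 5 DMSO counts, the fit without C gave 7.49, which is no measured fold because the counts left were at the floor of 3 counts or fewer.

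All 12 genes were also higher with abiraterone alone than with DMSO, and 9 were higher still with both drugs. MATN2 was at 23.1, 22.9 and 22.4 CPM with abiraterone, below the combination by 0.43 (adjusted p = 2.35e-06), and at 0.632, 0.395 and 0.659 CPM with olaparib. For PLA2G2A the abiraterone libraries, at 13.2, 13.7 and 12.4 CPM, overlapped those of the combination (difference -0.05 ± 0.12, adjusted p = 0.79). CYP1A2 read 0.0340, 0.0873 and 0.101 CPM with DMSO, 2.76, 1.68 and 2.46 with abiraterone, 0.579, 0.649 and 0.773 with olaparib and 5.80, 5.29 and 5.00 with both, an order without overlap. Of the 12, CYP1A2, RCAN2, DNASE1L3, COL5A1, CNTN5, UPK2, TUBA1A, MATN2 and SSTR5-AS1 were higher with the combination than with abiraterone alone, by 0.25 to 1.54.

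**Figure D2:**
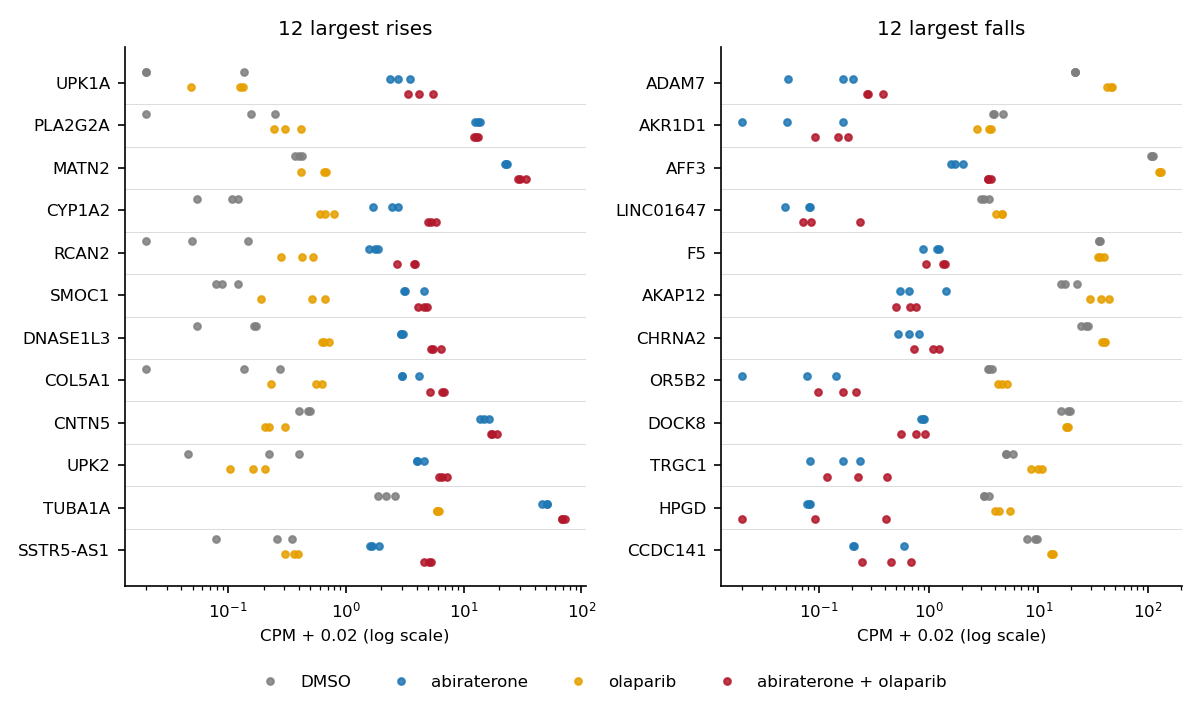
Level in CPM plus 0.02 (horizontal log axis) of 12 genes that rose most and 12 that fell most, 1 point per library, for DMSO, abiraterone, olaparib and the combination (3 libraries each). In every row the combination points lie apart from the DMSO points, and the abiraterone points lie on the same side as the combination.

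The 12 largest falls were of genes with DMSO means from 3.23 CPM (LINC01647) to 108.8 CPM (AFF3), and their combination means ran from 0.111 CPM (LINC01647) to 3.53 CPM (AFF3). AFF3, a nuclear transcription elongation factor, went from 106, 109 and 111 CPM with DMSO to 3.45, 3.66 and 3.48 CPM with the combination, a log2 fold change of -4.94 ± 0.082 (adjusted p = 6.08e-26). ADAM7, a membrane protein of the metalloprotease family known from the epididymis, went from 21.4, 21.4 and 21.6 CPM to 0.261, 0.361 and 0.254 CPM (-6.15 ± 0.15), and F5, coagulation factor V, from 36.2, 35.5 and 35.4 CPM to 1.40, 0.929 and 1.34 CPM (-4.89 ± 0.1). The DMSO libraries of these 3 genes lay within a narrow range and far above the combination libraries. AKR1D1, a steroid 5-beta-reductase, fell by 5.03, AKAP12, a kinase anchor protein, by 4.86, CHRNA2, a nicotinic receptor subunit, by 4.75, DOCK8, a guanine nucleotide exchange factor, by 4.60, and HPGD, the prostaglandin-degrading dehydrogenase, by 4.47. LINC01647 (a long noncoding RNA), OR5B2 (an olfactory receptor), TRGC1 (a T cell receptor gamma constant segment that overlaps the prostate transcript TARP) and CCDC141 completed the 12, at -4.92, -4.70, -4.52 and -4.27. Reads of TRGC1 and TARP share a locus, and their split is uncertain. HPGD had 12, 0 and 2 counts with the combination, and its log2 fold change was -3.77 without combination library B. The fits gave -6.61 for HPGD without A and -5.73 for LINC01647 (2, 2 and 6 counts) without C, which are no measured folds, since each left combination counts of 3 or fewer.

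With abiraterone alone AFF3 was lower still, at 1.57, 2.03 and 1.73 CPM, so that the combination exceeded it by 1.00 ± 0.16 (adjusted p = 3.13e-05). ADAM7 was also lower with abiraterone alone, at 0.145, 0.0318 and 0.185 CPM (difference 1.27 ± 0.47, adjusted p = 0.0379). With olaparib alone it was at 46.9, 45.9 and 42.5 CPM, above DMSO. For F5 the abiraterone libraries, at 1.22, 1.18 and 0.862 CPM, overlapped those of the combination (difference 0.14 ± 0.18, adjusted p = 0.65).

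Some genes were at the floor of detection, 3 counts or fewer, in all libraries of 1 group, and for these only a lower bound on the fold can be given. The floor was reached with DMSO by 169 of the genes called and with the combination by 81. CCDC83 had 1, 2 and 1 counts with DMSO and 112, 154 and 74 with the combination (at least 38.9-fold higher, taking 3 counts per library as the floor), and COL17A1, a hemidesmosome collagen, had 3, 0 and 1 and 92, 76 and 55 (at least 26.2-fold higher). COL17A1 had 15, 9 and 12 counts with abiraterone and 21, 17 and 16 with olaparib, so it was higher with both drugs than with either. In the other direction PNLIPRP3, a lipase-related protein, had 190, 243 and 245 counts with DMSO and 0, 1 and 1 with the combination (at least 69.5-fold lower), SLC38A4, an amino acid transporter, 143, 180 and 225 and 1, 1 and 0 (at least 55.7-fold lower), and SLC2A3, the glucose transporter GLUT3, 129, 131 and 165 and 1, 0 and 0 (at least 43.6-fold lower). TRIM49 had 3, 3 and 2 and 60, 71 and 49 counts, but it has close copies. The pseudogene NPIPP1, which has close copies, was also called (adjusted p = 0.0451), but it had 0, 113 and 81 counts with abiraterone and lost its call with the replicate letter as a block (adjusted p = 0.0671), with no filter on low counts (adjusted p = 0.0853) and without any 1 library of either group, so no fold is given. C22orf46P was named by the same rule without passing the test (adjusted p = 0.218), with 12, 0 and 203 counts in the combination libraries.

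Most androgen response genes fell. Of 108 androgen response genes tested, 96 were lower, 10 were higher and 2 did not pass the test, where 31.1% of all genes were called in each direction, and their median log2 fold change was -0.91 beside 0.01 over all genes. KLK3, which encodes prostate-specific antigen, read 1507, 1409 and 1434 CPM with DMSO and 503, 503 and 492 CPM with the combination. The groups did not overlap, and the log2 fold change was -1.54 ± 0.045 (SE; adjusted p = 3.38e-15). FKBP5, a steroid receptor chaperone, went from 826, 838 and 857 CPM to 124, 122 and 130.1 CPM (-2.75 ± 0.028; adjusted p = 6.52e-39). TMPRSS2, a membrane serine protease, went from 283, 249.6 and 219 CPM to 54.0, 56.0 and 56.4 CPM (-2.17 ± 0.081; adjusted p = 1.13e-12). KLK2, the kallikrein paralog of KLK3, changed by -1.97. Members with large falls were AKAP12 (-4.86) and the metalloreductase STEAP4 (-3.93), and HPGD was at -4.47, or -3.77 without combination library B. ACP3, prostatic acid phosphatase, was one of the 10 that rose, from 16.8, 16.7 and 15.5 CPM to 50.2, 52.4 and 50.9 CPM (1.65 ± 0.052).

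In these genes the combination lay closer to abiraterone than to olaparib. The list's median was -0.88 with abiraterone and 0.14 with olaparib, each against DMSO. KLK3 read 461, 497 and 498 CPM with abiraterone alone, which differed from the combination by 0.04 ± 0.045 (adjusted p = 0.544), and 1652, 1649 and 1612 CPM with olaparib alone. TMPRSS2 was less reduced with both drugs than with abiraterone, by 0.27 (adjusted p = 0.0306). Among the 108 genes, 41 were higher and 27 lower than with abiraterone alone (14.4% and 14.7% of all genes tested), and 7 were higher and 101 lower than with olaparib alone (27.3% and 29.3%). A stretch upstream of the KLK3 start is shown because KLK3 is a standard readout of the androgen response, with the androgen response hexamer AGAACA, the reverse complement of TGTTCT, in capitals (RefSeq, GRCh38.p14, chr19:50854700-50854795, plus strand):

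KLK3: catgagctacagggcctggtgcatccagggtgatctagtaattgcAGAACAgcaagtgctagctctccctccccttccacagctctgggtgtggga

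TGTTCT was sought on both strands in the 250 bases before each start and lay in 9 of 152 promoters (84 of the 108 genes had one in the table), or 5.9%, against 12.4% of 35116 promoters of all genes. The full element, AGAACA and TGTTCT with 3 bases between, was in 0 of the 152 and in 1 of all promoters. A match is a description of letters, and sequence outside these windows was not looked at.

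Genes that make and remove androgens moved in both directions: of 18 tested, 5 were higher and 9 lower, with a median of -0.33 (-0.26 with members at the floor set to their bound). CYP17A1, the target of abiraterone, was near the floor in both groups, with 1, 2 and 7 counts with DMSO and 3, 1 and 3 with the combination, and no fold is given. The UDP-glucuronosyltransferases, which conjugate androgens for excretion, split. UGT2B17 rose from 6.55, 6.29 and 6.21 CPM to 93.7, 83.6 and 79.0 CPM (3.75 ± 0.075; adjusted p = 7.49e-26) and UGT2B15 by 1.92, while UGT2B28 went from 53.5, 55.6 and 58.7 CPM to 4.72, 4.18 and 3.77 CPM (-3.72 ± 0.092) and UGT2B11 changed by -3.13. These paralogs are close in sequence, and reads shared among them were split by the authors' counting. HSD3B1, which converts precursors towards active androgens, rose from 0.0679, 0.145 and 0.177 CPM to 1.56, 1.75 and 1.59 CPM (3.58 ± 0.35), and CYP11A1, which makes pregnenolone, changed by -2.56. Of 17 prostate lineage factors and transcriptional coregulators 9 were higher and 5 lower. GATA2, a zinc finger transcription factor, rose by 1.11, the ETS factor SPDEF changed by -1.72 and the pioneer factor FOXA1 by -0.29, and HOXB13 was at -0.02 (adjusted p = 0.653).

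Targets of p53 rose. Of 50 tested, 40 were higher, 3 lower and 7 did not pass the test, with a median of 0.94. CDKN1A (p21), the cyclin-dependent kinase inhibitor, read 58.2, 57.3 and 46.8 CPM with DMSO, 94.1, 97.5 and 93.2 CPM with abiraterone, 239, 238 and 256 CPM with olaparib and 346, 353 and 355 CPM with the combination. The 4 groups did not overlap, and the combination was above DMSO by 2.70 ± 0.053 (SE; adjusted p = 1.18e-19), above abiraterone by 1.89 and above olaparib by 0.52 (adjusted p = 9.74e-09). CEL, a lipase gene, showed the same order, with 0.849, 0.902 and 0.684 CPM for DMSO, 3.60, 3.40 and 4.03 for abiraterone, 8.29, 8.47 and 7.56 for olaparib and 17.3, 16.2 and 18.4 for the combination (4.42 ± 0.13 over DMSO). MDM2, the ubiquitin ligase that degrades p53, went from 178, 179.9 and 180.4 CPM to 282, 280.5 and 283 CPM (0.65 ± 0.029; adjusted p = 3.59e-20). FAS, a death receptor, rose by 2.55, the antiproliferative gene BTG2 by 2.55, the mitophagy gene SPATA18 by 2.82 and the DNA damage sensor subunit DDB2 by 1.20. The list's median was 0.33 with abiraterone and 0.52 with olaparib, and the combination was higher than abiraterone in 41 of the 50 and lower in 2 (14.4% and 14.7% of all genes tested), and higher than olaparib in 33 and lower in 6 (27.3% and 29.3%). Both single agents were exceeded in 30 of the 50, and in 8.75% of all genes tested. In the BCL2 family 10 of 16 members were higher and 4 lower, among them the BH3-only death genes BMF (1.88), BBC3 (PUMA, 1.67) and BIK (1.47) on the rising side and PMAIP1 (NOXA, -0.68) on the falling side.

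The CEL promoter is shown because it was the only promoter of the list with a pair of p53 core motifs, CATG and CATG with 6 bases between, in these 250 bases, in capitals (RefSeq, GRCh38.p14, chr9:133061875-133061978, plus strand):

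CEL: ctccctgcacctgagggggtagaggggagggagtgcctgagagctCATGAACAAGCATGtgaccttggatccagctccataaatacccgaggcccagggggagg

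That pair lay in 1 of 64 promoters (1.6%, from 41 of 51 genes) and in 0.296% of all promoters.

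Cell cycle genes fell, both those of mitosis and those of replication. Of 61 mitotic genes, 60 were lower and 1 was higher, with a median of -0.69, and of 50 replication genes 39 were lower and 2 higher, with a median of -0.34. PLK1, a kinase that drives mitotic entry, read 86.2, 85.5 and 93.7 CPM with DMSO and 40.1, 39.7 and 44.9 CPM with the combination (-1.09 ± 0.053; adjusted p = 4.96e-16), and 78.0, 72.5 and 77.3 CPM with abiraterone and 64.8, 66.4 and 69.1 CPM with olaparib. Every combination library was below every library of the other 3 groups. The kinesins KIF14 (-1.07) and KIF18A (-1.01), the spindle kinase AURKA (-0.94) and the anaphase activator CDC20 (-0.90) changed alike. MKI67, which encodes the proliferation marker Ki-67, went from 227, 272 and 301 CPM to 161, 152 and 164 CPM (-0.75 ± 0.093; adjusted p = 3.74e-06), with 174, 176 and 181 CPM under olaparib alone, a difference of -0.16 ± 0.094 (adjusted p = 0.164). In replication, the helicase subunit CDC45 changed by -0.86, the dUTPase DUT by -0.81 and the primase PRIM1 by -0.76. Against abiraterone alone 60 of the 61 mitotic genes were lower (14.7% of all genes tested), against olaparib alone 44 were lower and 3 higher (29.3% and 27.3%), and the medians against DMSO were -0.16 with abiraterone and -0.48 with olaparib. Of 19 regulators of the G1 kinases 4 were higher, CDKN1A by the most, and 9 lower, with CDK6 at -1.44 and the inhibitor CDKN2A at -0.94. In bulk samples fewer cells of a state and less RNA per cell cannot be told apart, so these values do not separate fewer dividing cells from lower levels in each.

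The window before the PLK1 start carries the cell cycle homology region (CHR) TTTGAA, in capitals, a motif known from mitotic promoters (RefSeq, GRCh38.p14, chr16:23678815-23678888, plus strand):

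PLK1: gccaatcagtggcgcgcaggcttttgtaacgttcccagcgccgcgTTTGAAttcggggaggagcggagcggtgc

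TTTGAA, sought on both strands, lay in 30 of 65 mitotic promoters (46.2%), in 3 of 60 replication promoters (5.0%) and in 13.3% of all promoters. The E2F motif TTTCCCGC lay in 10 of the 60 replication promoters (16.7%) and in 1.39% of all.

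Repair genes fell by small amounts, with exceptions. Of 44 homologous recombination and Fanconi genes 33 were lower, 5 higher and 6 did not pass the test, with a median of -0.25, which was -0.05 with abiraterone and -0.28 with olaparib. BRCA2, a mediator of homologous recombination, read 76.3, 91.4 and 102 CPM with DMSO and 60.4, 57.4 and 60.9 CPM with the combination (-0.60 ± 0.11; adjusted p = 0.000144). The olaparib libraries, at 55.6, 57.5 and 54.9 CPM, overlapped those of the combination, and the difference between them was 0.09 ± 0.11 (adjusted p = 0.532). BRCA1 changed by -0.21 ± 0.052 (adjusted p = 0.000853), from 71.8, 80.3 and 82.8 CPM to 64.4, 67.8 and 70.9 CPM. PALB2, which joins BRCA1 and BRCA2, read 22.9, 22.8 and 22.6 CPM and 20.8, 20.5 and 20.8 CPM (-0.14 ± 0.049; adjusted p = 0.0154), and this call was lost under total-count scaling (-0.10, adjusted p = 0.0913). BARD1, the partner of BRCA1, went the other way, from 73.3, 82.5 and 83.3 CPM to 192 ± 7.56 CPM (SD, n = 3), with a lowest library of 185 CPM (1.26 ± 0.039; adjusted p = 2.79e-24), with 184, 181 and 176 CPM under abiraterone and 56.9, 58.8 and 60.0 CPM under olaparib. NBN of the MRN complex (0.40) and FANCL, the ubiquitin ligase of the Fanconi core (0.58), were also among the 5 that rose. Against abiraterone alone 28 of the 44 were lower and 0 higher (14.7% and 14.4% of all genes tested), while against olaparib alone 14 were higher and 9 lower (27.3% and 29.3% of all genes).

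Of 28 damage signalling and end joining genes 19 were lower and 0 higher by edgeR (0 higher also at an unadjusted p under 0.05 and by DESeq2), with a median of -0.23. The damage mediator MDC1 changed by -0.77, the histone H2AX by -0.63, and ATM, the kinase that senses double-strand breaks, read 50.8, 59.7 and 58.5 CPM and 55.6, 54.5 and 52.1 CPM (-0.06 ± 0.058; adjusted p = 0.38). The ATM groups overlapped, and without DMSO library A the value was -0.13 (adjusted p = 0.0369). PARP1, the main target of olaparib, read 568, 576 and 579.6 CPM with DMSO and 490.5, 485 and 475 CPM with the combination (-0.25 ± 0.021; adjusted p = 1.81e-12), and PARP2 changed by -0.28 ± 0.049 (adjusted p = 7.81e-06). In the wider PARP family 8 of 18 were higher and 6 lower, with PARP10 (0.98), PARP3 (0.83) and PARP14 (0.60) rising most.

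**Figure D3:**
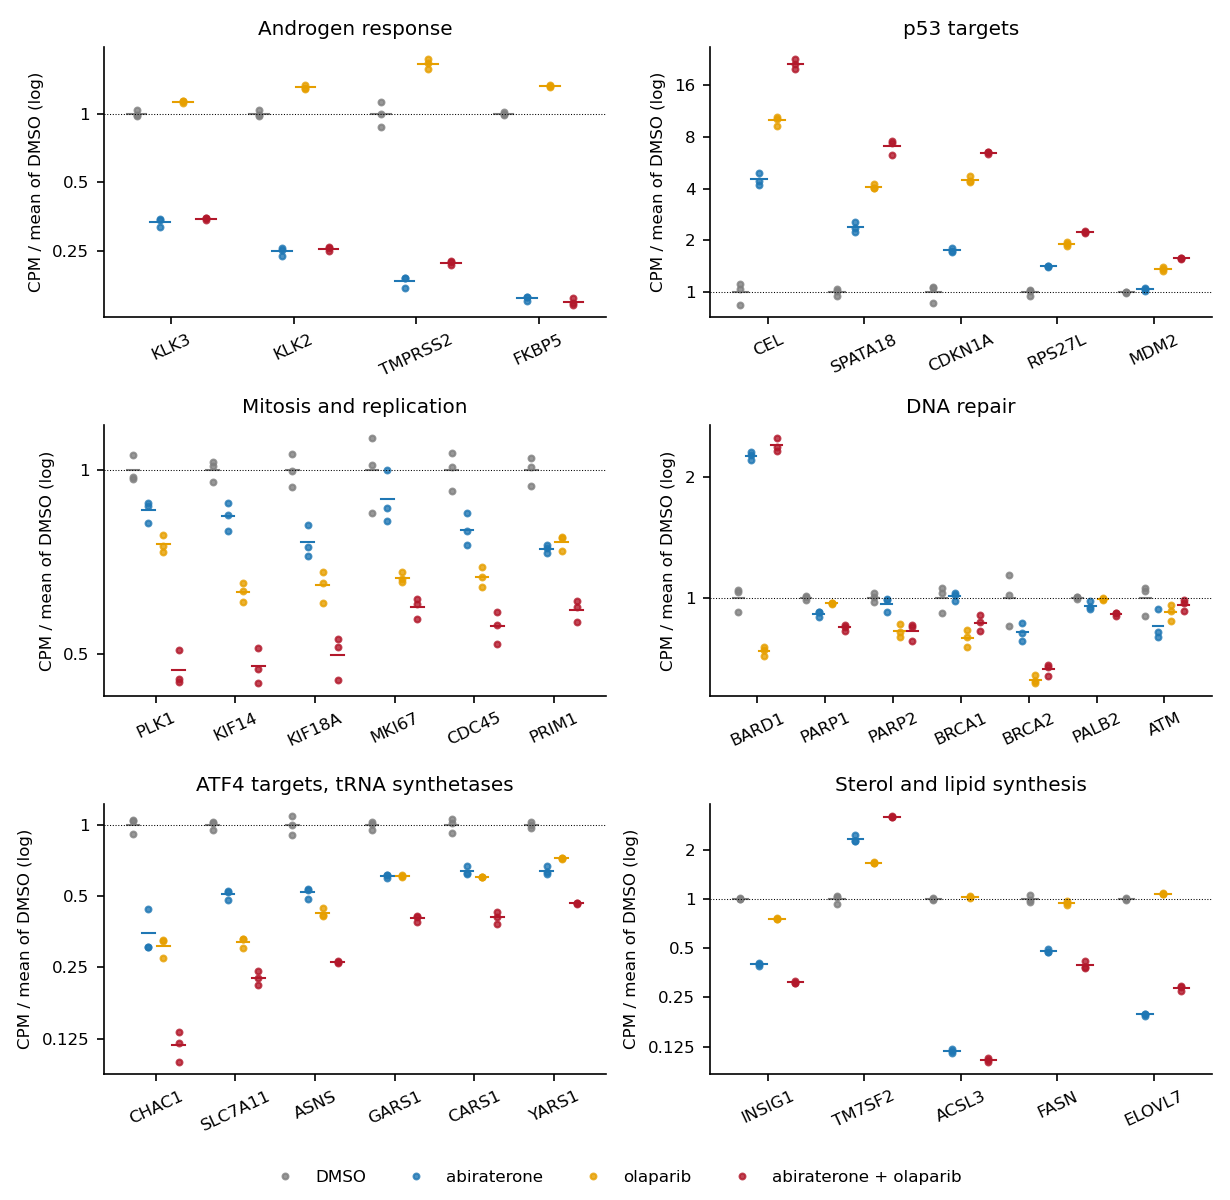
CPM of each library divided by the mean of the DMSO libraries (vertical log axis, dotted line at 1) for genes of 6 groups, with 3 points and a bar at the mean for each treatment. The combination lies next to abiraterone for KLK3, KLK2 and FKBP5, above both single agents for CEL, SPATA18 and CDKN1A, and below both for PLK1, KIF14, CHAC1 and ASNS.

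Targets of ATF4 fell, and their median was lower with both drugs than with either alone. ATF4 is the transcription factor of the integrated stress response, which raises amino acid uptake and synthesis. Of 30 targets 25 were lower, 1 was higher and 4 did not pass the test, with a median of -1.09, against -0.59 for abiraterone and -0.56 for olaparib. CHAC1, which degrades glutathione, read 12.2, 12.4 and 10.8 CPM with DMSO, 5.17, 3.59 and 3.57 with abiraterone, 3.79, 3.84 and 3.24 with olaparib and 1.17, 1.57 and 1.41 with both (-3.07 ± 0.14 over DMSO; adjusted p = 9.28e-20). ASNS, asparagine synthetase, read 438, 402 and 366, 214, 196 and 215, 178, 166 and 167 and 105, 106 and 107 CPM in the same order of groups (-1.92 ± 0.065; adjusted p = 1.78e-13). For both genes every combination library lay below every single-agent library. The cystine transporter SLC7A11 changed by -2.15, the pseudokinase TRIB3 by -1.71, the serine synthesis enzyme PSAT1 by -1.56 and ATF4 itself by -1.13, while SESN2, a stress gene that p53 also drives, rose by 0.43. Against abiraterone 23 of the 30 were lower and 2 higher (14.7% and 14.4% of all genes tested), and against olaparib 22 were lower and 3 higher (29.3% and 27.3%). Of 20 cytosolic tRNA synthetases, which charge tRNAs with amino acids, 19 were lower and 0 higher by edgeR (0 also at an unadjusted p under 0.05 and by DESeq2), with GARS1 at -1.31, CARS1 at -1.29 and YARS1 at -1.10, and only HARS1 among the 20 did not pass the test (-0.04, adjusted p = 0.327).

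The promoters of CHAC1 and ASNS are shown because they carry the ATF4 motif TGATGNAA, on the minus strand of the printed line for CHAC1, in capitals (RefSeq, GRCh38.p14, chr15:40953221-40953314, plus strand and chr7:97872424-97872521, minus strand):

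CHAC1: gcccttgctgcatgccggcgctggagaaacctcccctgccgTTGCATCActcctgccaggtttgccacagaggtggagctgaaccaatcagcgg
ASNS: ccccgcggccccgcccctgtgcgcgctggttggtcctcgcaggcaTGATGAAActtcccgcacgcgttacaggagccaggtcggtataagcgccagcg

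The motif lay in 5 of 37 promoters of ATF4 targets (13.5%), in 3 of 21 of tRNA synthetases (14.3%) and in 1104 of the 35116 promoters of all genes.

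Genes of protein folding and of the ribosome biogenesis list fell as well, with medians nearer to those of abiraterone. Of 30 chaperones and quality control genes of the endoplasmic reticulum (ER) 29 were lower and 1 higher, with a median of -0.61, against -0.48 with abiraterone and -0.01 with olaparib. HSPA5 (BiP), the main ER chaperone, went from 979, 963 and 922 CPM to 724, 720.4 and 732 CPM (-0.40 ± 0.026; adjusted p = 1.51e-15), and olaparib alone had 1091, 1086 and 1093 CPM. The secretory factor CREB3L2 changed by -1.34, the translocon subunit SSR3 by -1.28, the signal peptidase subunit SPCS3 by -1.06 and the unfolded protein factor XBP1 by -0.92. Of 33 genes of the ribosome biogenesis list 30 were lower and 1 higher, among them RRP9 at -0.71. The list's median was -0.36, against -0.25 with abiraterone and 0.0012 with olaparib. The list also holds enzymes of polyamine synthesis, with ODC1, the first enzyme, at -0.98 and the spermidine synthase SRM at -0.89. MYC, a driver of these genes, went from 152, 137 and 128 CPM to 119, 110.3 and 116 CPM (-0.28 ± 0.06; adjusted p = 0.000708). Of 84 ribosomal protein genes 15 were higher and 38 lower, with a median of -0.05, against -0.10 with abiraterone and -0.05 with olaparib. The HSPA5 promoter is printed with its ER stress element, CCAAT and CCACG with 9 bases between, in capitals (RefSeq, GRCh38.p14, chr9:125241346-125241454, minus strand):

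HSPA5: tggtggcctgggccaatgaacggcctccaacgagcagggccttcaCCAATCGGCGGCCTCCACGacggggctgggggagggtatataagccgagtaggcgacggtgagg

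The element lay in 8 of 39 promoters of the ER list (20.5%) and in 0.074% of all promoters.

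Lipid synthesis fell. Of 25 cholesterol genes 22 were lower and 3 higher, with a median of -0.67, against -0.54 with abiraterone and -0.07 with olaparib. INSIG1, the sterol sensor partner, went from 416, 410.3 and 412 CPM to 130.0, 127 and 127 CPM (-1.69 ± 0.028; adjusted p = 3.93e-33). INSIG1 was lower than with either single agent, at 161, 166 and 168 CPM with abiraterone and 315, 311 and 309 CPM with olaparib. TM7SF2, a sterol reductase, rose by 1.67. Of 23 fatty acid synthesis genes 7 were higher (30.4%) and 15 lower (65.2%), beside 31.1% of all genes in each direction. Their median was -0.45 and their highest value 3.625. ACSL3, which activates fatty acids and is an androgen target, had the largest loss of CPM among all genes, from 1973, 2020.0 and 1991 CPM to 214, 207 and 202 CPM (-3.26 ± 0.025; adjusted p = 1.59e-42). FASN, fatty acid synthase, went from 1535, 1475 and 1645 CPM to 599, 585 and 648 CPM (-1.35 ± 0.05), and the RAS association gene RASSF3, no lipid gene but among the 5 largest losses of CPM, changed by -1.57. ELOVL7, an elongase, was less reduced with both drugs than with abiraterone alone, at 139, 142 and 132 CPM against 95.4, 93.1 and 95.5 CPM (difference 0.54 ± 0.032, adjusted p = 2.09e-15). Fatty acid oxidation genes were mixed, with 14 of 30 higher and 10 lower (median 0.02). The peroxisomal racemase AMACR rose by 1.45 and the isomerase ECI2 changed by -1.78.

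Of 35 glycolysis and hypoxia genes 26 were lower and 4 higher (median -0.38), with hexokinase HK2 at -1.39 and lactate dehydrogenase LDHA at -1.09, while the enolase ENO2 rose by 2.54 and the carbonic anhydrase CA12 by 2.14. Respiratory chain subunits split by genome. Of 78 encoded in the nucleus 55 were lower and 7 higher (median -0.21), and of 13 encoded in mitochondrial DNA 12 were higher and 0 lower by edgeR (0 also at an unadjusted p under 0.05 and by DESeq2; median 0.47). The number of nuclear subunits called higher was 13 under total-count scaling. MT-ND5, a complex I subunit, went from 3651, 3698 and 3360.0 CPM to 6341, 6167 and 5949 CPM (0.79 ± 0.051; adjusted p = 1.41e-09), MT-CYB rose by 0.65 and MT-CO1 by 0.38, and MT-ND6 was at 0.12 (adjusted p = 0.308). The 5 largest gains of CPM were all mitochondrial, MT-RNR2, MT-CO1, MT-ND4, MT-CYB and MT-ND5. The median of the 13 was 0.16 with abiraterone and 0.38 with olaparib, each against DMSO. Against abiraterone alone 12 of the 13 were higher (14.4% of all genes tested), and against olaparib alone 4 were higher (27.3%). The mitochondrial share of counts, a common sign of RNA quality, moved with this result (9.68% to 10.1% and 13.2% to 13.8%), and its part in it was not tested.

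Interferon response genes rose more often than they fell. Of 49 tested 31 were higher, 4 lower and 14 did not pass the test, with a median of 0.46, against 0.36 with abiraterone and 0.24 with olaparib. GBP2, an interferon-induced GTPase, read 0.0679, 0.116 and 0.405 CPM with DMSO and 3.68, 3.92 and 2.97 CPM with the combination (4.06 ± 0.31; adjusted p = 1.38e-13), and 1.57, 1.43 and 1.39 CPM with abiraterone and 0.553, 0.565 and 0.487 CPM with olaparib. Without DMSO library C its log2 fold change was 5.18. TRIM22, an antiviral ligase that p53 also induces, went from 0.442, 0.233 and 0.583 CPM to 3.42, 4.57 and 4.31 CPM (3.27 ± 0.25). IRF1, a transcription factor of the response, rose by 1.90, IFIT2 by 1.85 and the RNA sensor RIGI by 1.45. ISG15, a ubiquitin-like modifier, rose by less, from 7.88, 5.36 and 5.57 CPM to 9.57, 10.8 and 9.31 CPM (0.67 ± 0.11; adjusted p = 1.96e-06), and HERC6 changed by -0.90. Against abiraterone alone 11 of the 49 were higher and 3 lower (14.4% and 14.7% of all genes tested), and against olaparib alone 31 were higher and 5 lower (27.3% and 29.3%). Of 19 genes of MHC class I presentation 12 were higher and 5 lower (median 0.43), with HLA-B at 0.88 and the peptide transporter TAP1 at 0.67, but the light chain B2M changed by -0.64. HLA genes are variable and alike, and their counts are uncertain.

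Upstream of ISG15 and IFI27, 2 genes of the list that rose, lie interferon-stimulated response elements with the core TTTC and TTTC with 2 bases between, on either strand, in capitals and partly overlapping in ISG15 (RefSeq, GRCh38.p14, chr1:1013345-1013444, plus strand and chr14:94110596-94110695, plus strand):

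ISG15: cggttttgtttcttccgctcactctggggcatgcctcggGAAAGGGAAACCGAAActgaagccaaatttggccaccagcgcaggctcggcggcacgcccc
IFI27: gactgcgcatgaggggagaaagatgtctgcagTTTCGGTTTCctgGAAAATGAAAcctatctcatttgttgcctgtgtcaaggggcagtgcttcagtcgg

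The core lay in 28 of 57 promoters of the list (49.1%) and in 3.02% of all promoters.

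Genes of the cell surface and surroundings rose more often than they fell. Of 107 matrix and integrin genes 71 were tested, and 43 were higher and 13 lower (median 0.69). Among the 71, 6 were at the floor in 1 group. A gene at the floor in a group can pass the filter only through libraries of other groups. Its direction therefore follows in part from the filter. FN1, fibronectin, went from 192, 199.5 and 192 CPM to 702, 667 and 665 CPM (1.80 ± 0.036; adjusted p = 6.64e-25), and abiraterone alone had 639, 684 and 638 CPM, a difference of 0.05 ± 0.034 (adjusted p = 0.269). The hemidesmosome integrin ITGB4 rose by 2.37, while the laminin LAMA1 went from 24.7, 27.9 and 30.2 CPM to 1.95, 1.57 and 1.63 CPM (-4.01 ± 0.17). ITGAM and PTPRC, known from leukocytes and given above with the immune markers, were at least 4.49-fold and 8.67-fold higher. Both were at the floor with DMSO, so this limit of the filter holds for them. Of 55 axon guidance genes 42 were higher and 6 lower (median 0.68). SEMA3C, a secreted semaphorin, went from 25.3, 27.4 and 27.1 CPM to 261, 262 and 242 CPM (3.26 ± 0.043; adjusted p = 1.39e-34), above the 184, 174 and 165 CPM of abiraterone and the 42, 46.2 and 43.8 CPM of olaparib. The netrin receptor UNC5B rose by 2.17 and the ephrin receptor EPHA10 by 2.30. Of 35 Wnt pathway genes 20 were higher and 7 lower (median 0.37), with the ligase RNF43 (2.29), the ligand WNT9A (1.90) and the receptor FZD3 (1.33) rising, and the inhibitor DKK1 had 1, 0 and 0 counts with DMSO and 25, 32 and 14 with the combination (at least 8.10-fold higher).

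Among 27 receptor tyrosine kinase and insulin-like growth factor (IGF) genes 14 were higher and 10 lower. The IGF-binding protein IGFBP3 went from 6.62, 8.32 and 9.90 CPM to 83.7, 91.4 and 69.2 CPM (3.28 ± 0.18; adjusted p = 2.16e-10), while the receptor IGF1R changed by -1.48 and its adaptor IRS1 by -2.03. Epithelial genes were divided, 11 of 22 higher and 9 lower, with the junction proteins OCLN (1.47) and CDH1 (0.70) rising and the keratin KRT19 changing by -0.65. Of 12 mesenchymal genes tested 5 were higher and 3 lower: smooth muscle actin ACTA2 rose by 3.96, and the transcription factor SNAI2 went from 12.3, 13.8 and 11.5 CPM to 1.73, 1.39 and 1.45 CPM (-3.04 ± 0.14) and the crosslinking enzyme LOX changed by -3.87. ZEB1, ZEB2 and TWIST1 did not pass the filter on low counts.

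**Figure D4:**
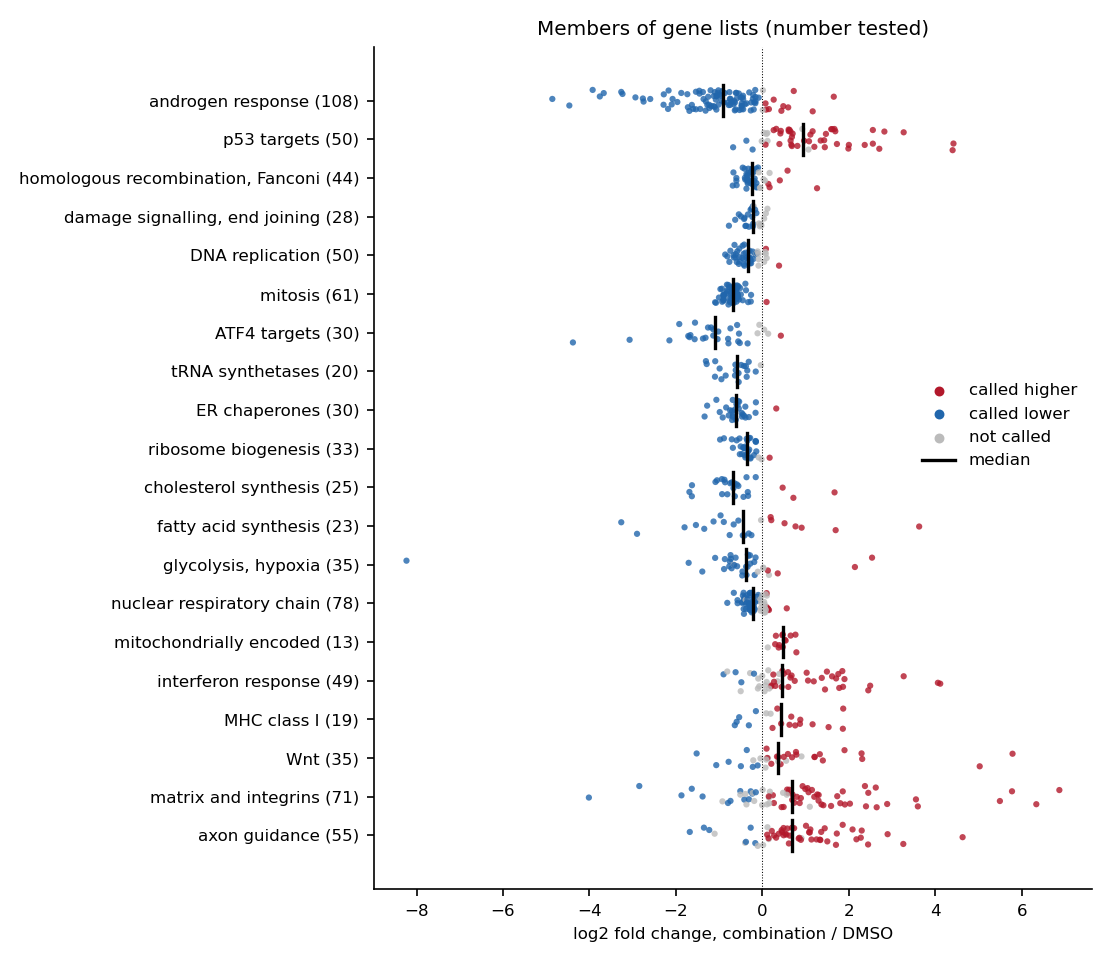
Log2 fold change of the combination over DMSO (horizontal axis) for the members of 20 gene lists, 1 point per gene tested, coloured by call, with a bar at the median. Androgen response, mitosis, ATF4 targets and ER chaperones lie mostly left of 0, p53 targets, matrix and axon guidance mostly right; points of genes at the floor in 1 group, such as SLC2A3 at the far left, are fitted values and no measured fold.

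**Figure D5:**
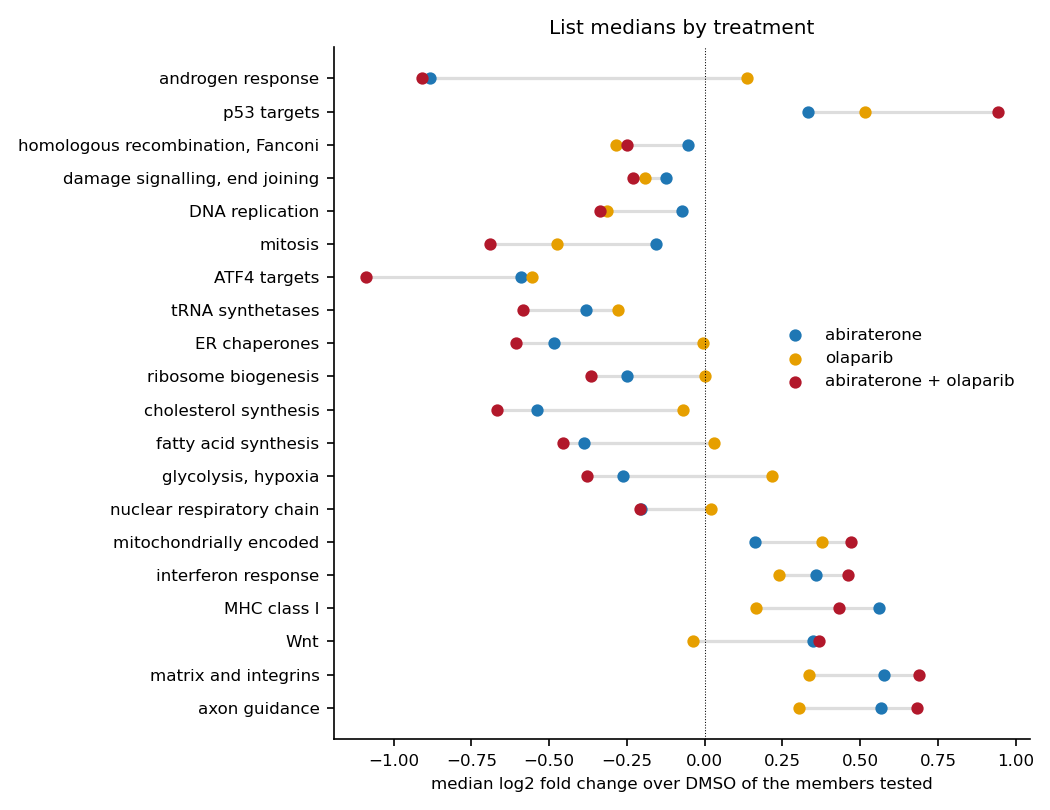
Median log2 fold change over DMSO (horizontal axis) of the same 20 lists for abiraterone, olaparib and the combination, 1 point per treatment. For androgen response the combination lies on abiraterone, for homologous recombination near olaparib, and for ATF4 targets (-1.09), p53 targets (0.94) and mitosis (-0.69) beyond both; the 3 medians of a row share the DMSO libraries.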

How the data were processed

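Reads were trimmed with Trim Galore, aligned to GRCh38 with STAR and counted per gene with Salmon on GENCODE v45 by the authors, who deposited estimated counts as whole numbers without normalization; tool versions are not given in the labels. The 21 panel libraries (7 treatments) entered one edgeR 4.0.16 quasi-likelihood fit in R 4.3.3 (TMM scaling, filterByExpr by group, robust dispersions, Benjamini-Hochberg adjustment), as design without covariates; 18625 of 63187 genes were tested, and the filter removed 0.049% of counts. The authors' methods name DESeq2 with a local fit, which was run as an alternative (DESeq2 1.42.0). CPM, log2 fold changes and SE were computed from the deposited counts; 0 columns belonged to other samples. Symbols were found for 42338 genes, and the 20849 without one held 0.783% of counts; gene types came from GENCODE v44. Fits were tested on simulated data. Promoters are RefSeq (GRCh38.p14) windows. The gene lists, motifs and compared groups were chosen with earlier results of these data known. Named genes are the 12 largest rises and falls called (group mean of 100 counts or more on the high side, over 3 counts in a library on the low side), 3 top called members per list, 17 fixed genes, 5 per direction at the floor of 3 counts, and 5 per direction by CPM change; others were chosen after their values were seen. A few genes are not reported here. Counting error alone sets a limit of 3 counts on a level of 0.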

Additional observations from a re-analysis of the deposited data

Results flagged for a closer look

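For 13 of 41 named genes, the effect of olaparib in the presence of abiraterone differed from its effect alone. The test was the interaction term of edgeR's quasi-likelihood fit, adjusted over all genes tested, of which 12.8% passed. The 41 were named for the largest rises and falls or for their place in the pathways of the drugs. Those rises and falls were picked by values of the same combination and DMSO libraries. The 13 of 41 is therefore not to be read against the 12.8%. The interaction, as the log2 effect with abiraterone minus that without, was -1.84 (adjusted p = 0.0227) for CYP1A2, where olaparib added 1.22 with and 3.06 without abiraterone. It was -2.16 (adjusted p = 0.00294) for SMOC1, -1.68 (adjusted p = 0.0407) for RCAN2, -1.50 (adjusted p = 0.00504) for DNASE1L3 and -0.98 (adjusted p = 4.63e-05) for TUBA1A, all of which rose with each drug alone. CNTN5 gave 1.22 (adjusted p = 0.0097), with olaparib at 0.25 with and -0.96 without abiraterone. AFF3 gave 0.76 (adjusted p = 0.00348).

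Among the androgen targets the interaction was -0.46 (adjusted p = 1.46e-10) for FKBP5, -0.45 (adjusted p = 0.0169) for TMPRSS2 and -0.35 (adjusted p = 0.000107) for KLK2. Olaparib alone raised these 3 by 0.40, 0.73 and 0.39, and with abiraterone present the differences were -0.05, 0.27 and 0.04. For the damage response genes it was 0.30 (adjusted p = 0.015) for ATM, -0.29 (adjusted p = 0.0111) for CDKN1A and 0.15 (adjusted p = 0.0129) for MDM2. CYP1A2, RCAN2, SMOC1 and DNASE1L3 had at most 6 counts in any DMSO library.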

How the results depend on the processing

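The number of genes called against DMSO stayed within 1.5 times of 11581 under RLE or total-count scaling, no filter or a minimum of 1 CPM, the Wald test of DESeq2 and a fit of only the groups compared. Testing against a log2 fold change of 0.5 (edgeR's glmTreat) left 3784 genes, 2355 higher and 1429 lower, as its construction asks for larger changes. Over those alternatives the count ranged from 3784 to 11700 and that with a change of at least 1 from 1810 to 3259. The glmTreat setting was applied only to the comparison with DMSO. Over the other alternatives the count against abiraterone ranged from 5134 to 5595. That against olaparib ranged from 9850 to 10566 and that of the interaction from 2189 to 2786. Leaving out 1 library at a time gave 10887 to 11229, 2641 to 2746, 4485 to 4910, 9799 to 10053 and 1801 to 2494. The letters A, B and C share only a label: same-letter deviations of the combination and DMSO correlated at -0.0248, 0.000926 and 0.0221, and with the replicate block the counts were 11530, 2675, 5351, 10495 and 2306. Of 156 named genes 153 were called, 135 of them with the same direction and call under every alternative, and none of the 153 reversed. PALB2 lost its call under total-count scaling, without a filter (adjusted p = 0.098) and with only the groups compared (adjusted p = 0.0511), and the cause was not tested. It also lost its call with glmTreat. The block left 1 replication gene higher in place of 2. NPIPP1 lost its call with the replicate block (adjusted p = 0.0671), with no filter on low counts (adjusted p = 0.0853), with glmTreat (adjusted p = 0.123) and without any 1 library, and C22orf46P gained one under DESeq2 (adjusted p = 7.39e-05). Genes near 3 counts per library, 0.076 to 0.109 CPM in these libraries, limit what can be said of silent genes.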

Other observations

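Further gene groups moved in both directions. Of 9 drug and sterol exporters of the ABC family tested 6 were higher and 3 lower: ABCA1, which exports cholesterol, went from 0.238, 0.582 and 0.127 CPM with DMSO to 4.07, 4.38 and 3.62 CPM with the combination (3.68 ± 0.26, or 4.50 without DMSO library B), ABCG1 rose by 2.19 and ABCG2, a multidrug exporter, by 1.93, and ABCC4 changed by -0.80. ABCB1, the P-glycoprotein that exports olaparib, did not pass the filter on low counts. Of 32 lysosome and autophagy genes 20 were higher and 7 lower (median 0.22), with GABARAPL1 at 1.04 and LAMP2 at 0.72. Of 23 glutathione and NRF2 genes 9 were higher and 13 lower, and SLC7A11 had the largest change. Of 6 metallothionein and zinc genes 1 was higher and 1 lower, and of 12 polyamine genes 2 were higher and 9 lower.

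Of 13 genes for cell surface targets of prostate cancer therapy 7 were higher and 6 lower. FOLH1, which encodes PSMA, rose by 0.30 ± 0.023, from 797, 798 and 766 CPM to 983, 985 and 934 CPM, and CD276 (B7-H3) by 0.73, while DLL3 changed by -0.66 and PSCA by -0.54. Neuroendocrine genes gave no single direction, with 3 of 9 higher and 4 lower: SYT4, a synaptotagmin, went from 15.0, 13.5 and 13.9 CPM to 118, 118 and 107 CPM (3.02 ± 0.061) and ENO2 rose by 2.54, but SYP, synaptophysin, changed by -1.22, and CHGA, NCAM1 and SOX2 did not pass the filter. Of 3565 long noncoding RNAs tested 831 were higher and 570 lower. Of the smaller marker lists, 0 of 4 basal genes passed the test by edgeR in either direction (0 also at an unadjusted p under 0.05 and by DESeq2), 2 of 3 fibroblast genes and the 1 endothelial gene tested (VWF, 0.46) were higher, and of 4 immune genes 2 were higher and 1 lower. Of 10 luminal genes 4 were higher and 5 lower.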
